A study of Mus musculus with 12 samples.

Results

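The aryl hydrocarbon receptor and its best known target genes were followed through the liver and lung of newborn *Man1a2* mice. The genes are *Ahr*, which encodes the receptor, *Arnt*, its partner, *Ahrr* and *Tiparp*, its repressors, and the enzyme genes *Cyp1a1*, *Cyp1a2*, *Cyp1b1* and *Nqo1*. They are 8 of the 24421 genes listed for each library and were taken by symbol. They were chosen by the liver contrast of null against WT, in which *Cyp1a1* and *Cyp1a2* were among the largest falls, so the liver values of null against WT describe that choice and carry no test here.

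RNA was sequenced from newborn pups of heterozygous matings of the Man1a2tm1.1Ahe line. WT (*Man1a2* +/+) and null (*Man1a2* -/-) pups gave 3 liver and 3 lung libraries for each genotype, 12 libraries altogether. The MAN1A2 protein is a mannosidase of the Golgi that trims N-linked glycans, and the null allele lacks exon 2 in every cell, not in a chosen cell type. Null pups die of respiratory failure soon after birth, tissue was taken within the first hour of life, and the strain background and the sex of the pups are not given in the sources used here. The series describes the liver and lung samples as coming from 3 mice of each genotype, but it does not say outright that a number stands for one pup. The libraries held polyadenylated RNA, were strand-specific, and had between 26759463 and 42914295 reads counted on genes. CPM below are counts per 1000000 of the TMM-adjusted library total, where TMM takes most genes as unchanged, and 3 reads correspond to 0.0538 to 0.126 CPM.

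The aryl hydrocarbon receptor (AhR) is a transcription factor of the bHLH-PAS family that is held in the cytosol with HSP90 until it binds a ligand. Ligands include combustion products, plant compounds and metabolites of tryptophan. The bound receptor moves to the nucleus, pairs with ARNT and binds xenobiotic response elements (XRE), whose core reads GCGTG. CYP1A1, CYP1A2 and CYP1B1 are cytochrome P450 enzymes that oxidise such ligands, and CYP1A2 is made mainly in hepatocytes. The AhR repressor (AHRR) competes for ARNT, and TIPARP is an ADP-ribosyltransferase that marks the receptor for breakdown, so both close a feedback loop on the receptor.

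2 libraries stood apart from the rest of their tissue. Null lung 1 correlated with the other 5 lungs at 0.854 to 0.872 on log2 CPM across genes. Its 5 markers of alveolar type 2 cells summed to 74.1 CPM against 16949 to 23791 CPM in the other lungs, all 5 below every other lung and none at 0. Of its 4 alveolar type 1 markers 3, and of its 6 endothelial markers all, were also below every other lung. Its 4 skeletal muscle markers summed to 7231 CPM against 16.6 to 51.6 CPM in the other lungs, and its 6 fibroblast markers to 3808 CPM against 643 to 770 CPM. Of these 6 fibroblast markers, 4 were above and 2 below every other lung. Its 4 club cell markers summed to 2961 CPM, within the 2612 to 4555 CPM of the other lungs, with 1 above and 1 below every other lung. Its 4 ciliated markers summed to 355 CPM against 254 to 339 CPM, with 2 above every other lung. The alveolar, endothelial and muscle values go against its lung label, while the club sum, at 21.3 to 75.4 CPM in the livers, does not. The ciliated sum cannot bear on the label. It was 267 to 387 CPM in WT and 231 to 361 CPM in null livers, which overlaps the lungs. Lung results are given with and without null lung 1. Null liver 1 had 5954 CPM of the 4 skeletal muscle markers against 5.97 to 8.81 CPM in the other livers and 1505 CPM of fibroblast markers against 488 to 669 CPM. Of its 6 fibroblast markers, 2 were above and 1 below every other liver. Its 6 hepatocyte markers, at 165624 CPM, lay within the range of 127963 to 199821 CPM of the other livers, and none was at 0. *Man1a2* itself was at 54.2 to 87.0 CPM in WT and 48.2 to 53.7 CPM in null liver, and at 75.5 to 107 CPM in WT and 42.5 to 50.2 CPM in null lung. Its null libraries lay below its WT libraries in both tissues, although exons that the null allele keeps are counted too.

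The bases just before the start of 4 target genes are shown because their levels differed most, or in opposite directions, between the genotypes. RefSeq holds a start region on GRCm38.p6 for 7 of the 8 genes, all but *Ahr*. Capitals mark each GCGTG, or CACGC where the core lies on the other strand, and bases that GENCODE places in an exon are left out. The *Cyp1a1* bases are chr9:57697363-57697612 on the plus strand, between exons of a longer GENCODE transcript. The *Cyp1a2* bases are chr9:57683704-57683905 on the minus strand, the *Tiparp* bases chr3:65528197-65528409 on the plus strand and the *Ahrr* bases chr13:74292332-74292581 on the minus strand.
Cyp1a1: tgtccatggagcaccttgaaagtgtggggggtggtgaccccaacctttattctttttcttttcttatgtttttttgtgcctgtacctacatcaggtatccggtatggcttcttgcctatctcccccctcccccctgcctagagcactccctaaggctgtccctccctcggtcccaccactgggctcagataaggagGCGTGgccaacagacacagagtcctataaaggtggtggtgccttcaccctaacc
Cyp1a2: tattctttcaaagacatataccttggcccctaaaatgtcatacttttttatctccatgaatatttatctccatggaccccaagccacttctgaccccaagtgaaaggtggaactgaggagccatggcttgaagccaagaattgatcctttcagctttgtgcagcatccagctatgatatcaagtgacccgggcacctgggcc
Tiparp: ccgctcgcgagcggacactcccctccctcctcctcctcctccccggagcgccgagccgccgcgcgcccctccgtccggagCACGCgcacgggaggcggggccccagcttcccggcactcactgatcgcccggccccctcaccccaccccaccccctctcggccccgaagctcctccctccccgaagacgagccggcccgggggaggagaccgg
Ahrr: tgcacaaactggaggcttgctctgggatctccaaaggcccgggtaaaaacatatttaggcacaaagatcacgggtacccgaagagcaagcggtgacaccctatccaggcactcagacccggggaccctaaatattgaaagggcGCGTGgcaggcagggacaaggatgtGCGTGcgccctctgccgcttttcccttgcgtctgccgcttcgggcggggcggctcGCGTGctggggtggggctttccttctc
In the 250 bases before the RefSeq start, 5 of the 7 genes held the core on either strand, against 28.2% of 32841 such windows. *Ahrr* held 3 cores, starting 107, 82 and 27 bases before the start, and *Cyp1a1* held 1, starting 54 bases before it and upstream of the letters TATAAA, which 12.4% of all windows held. *Tiparp* held 1 at 170 bases, *Cyp1b1* 1 at 76 bases and *Arnt* 1 at 29 bases, while the *Cyp1a2* and *Nqo1* windows held none. Bases further upstream were not searched for any motif. The longer form TNGCGTG was found once, in *Ahrr*, and in 4.1% of all windows. GCGTG is also part of sites that hypoxia-inducible factors bind, so the letters do not name a factor. The antioxidant response element through which NRF2 acts, searched as TGACNNNGC on both strands, was found in *Arnt* alone and in 10.2% of all windows.

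*Cyp1a1* and *Cyp1a2* lie on chromosome 9 of GRCm38 and are read away from each other, with 4224 bp between the gene bodies, from 57687928 to 57703824 for *Cyp1a1* on the plus strand and from 57676937 to 57683703 for *Cyp1a2* on the minus strand. *Tiparp* (65528410 to 65555518) and *Arnt* (95434388 to 95497240) lie on chromosome 3, 35.01 and 5.06 Mb from *Man1a2*, so that alleles near the null allele may travel with it, which cannot be told apart from genotype here. *Ahr* lies on chromosome 12, *Ahrr* on 13, *Cyp1b1* on 17 and *Nqo1* on 8. *Ahr* shares 127 exonic bases with the antisense lincRNA Gm48236 and *Tiparp* 223 with the antisense pseudogene 4931440P22Rik, and it is not stated whether counting used the strand.

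In liver, the receptor, its partner and its repressor *Tiparp* were higher in null than in WT pups, while *Cyp1a1* and *Cyp1a2* were far lower. *Ahr* was at 29.6, 37.5 and 41.3 CPM in WT liver 1, 2 and 3 and at 62.5, 48.1 and 106 CPM in null liver 1, 2 and 3. All null livers were above all WT livers, null liver 3 most of all, and the log2 fold change was 1.0 (standard error, SE, 0.28). Fewer cells of a type and less RNA per cell cannot be told apart in such whole-tissue RNA. *Arnt* was at 48.5, 39.9 and 47.5 CPM in WT and at 78.7, 69.5 and 91.4 CPM in null livers, again without overlap, with a log2 fold change of 0.81 (SE 0.14).

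The levels of the repressors differed from WT in opposite directions in null liver. *Tiparp* was at 25.7, 25.9 and 24.9 CPM in WT livers, the tightest of the 8 genes, and at 46.9, 61.5 and 197 CPM in null livers. The null group was wholly higher, with a 4.2-fold range inside it that came from null liver 3, and the log2 fold change was 2.00 (SE 0.51). *Ahrr* was counted with few reads, 16, 13 and 16 in WT livers (0.563, 0.537 and 0.547 CPM) and 8, 11 and 9 in null livers (0.302, 0.385 and 0.378 CPM). The null group was wholly lower, at a log2 fold change of −0.63 (SE 0.32), short of the cut-off for a call.

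*Cyp1a1* all but vanished from null liver. It had 46, 323 and 83 reads in WT livers 1, 2 and 3 (1.62, 13.3 and 2.84 CPM) and 1, 2 and 0 reads in null livers 1, 2 and 3. Each null library was below the level of 3 reads, and the WT group was wholly above it although it spread 8.24-fold. Over pooled reads, 452 in WT and 3 in null, WT was 145-fold higher after scaling, with a 95% exact interval of 49.4 to 707 that covers counting error only and not the spread between pups. The fitted log2 fold change of −7.11 depends on how zeros are filled.

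*Cyp1a2* fell less far and from a higher level. It had 163, 796 and 250 reads in WT livers 1, 2 and 3 (5.73, 32.9 and 8.55 CPM) and 11, 79 and 8 reads in null livers (0.415, 2.76 and 0.336 CPM). The groups did not overlap, with a 5.73-fold spread in WT and an 8.21-fold spread in null, and pooled reads were 11.9-fold higher in WT (95% exact interval 9.67 to 14.8, counting error only). The log2 fold change was −3.70 (SE 0.95). WT liver 2 was the highest and WT liver 1 the lowest WT library for both genes, and null liver 2 was the highest null library for both. Per length, *Cyp1a2* stood above *Cyp1a1* by 4.91, 3.41 and 4.17 times in WT livers 1, 2 and 3, a near ratio across the WT levels. In null livers 1 and 2 the ratio was 15.2 and 54.7, on 1 and 2 *Cyp1a1* reads.

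**Figure D1:**
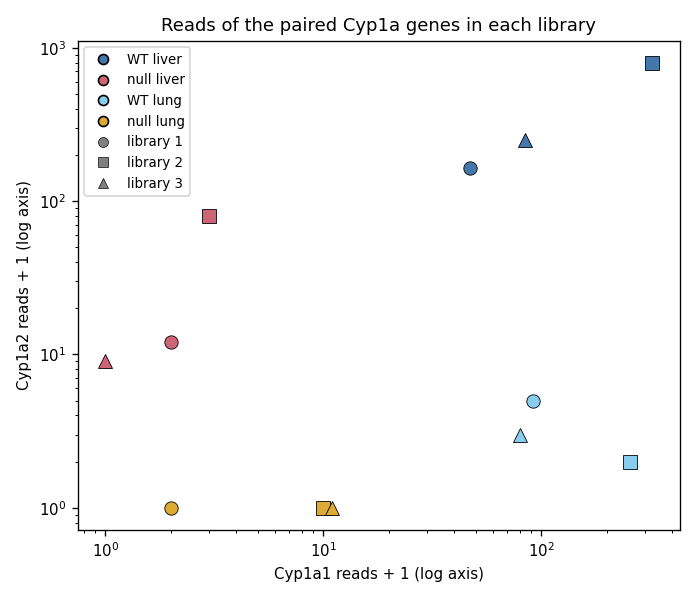
Reads of *Cyp1a1* (x axis) and *Cyp1a2* (y axis) in each of the 12 libraries, each with 1 read added and on log axes; colours give the group and symbols the library number. The 3 WT livers lie along a line from 46 to 323 *Cyp1a1* reads, null livers have at most 2 *Cyp1a1* reads, and WT lungs have 79 to 254 *Cyp1a1* reads but at most 4 of *Cyp1a2*.

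The remaining enzymes were closer between the genotypes in liver. *Cyp1b1* was at 3.38, 1.16 and 1.75 CPM in WT and at 3.05, 2.24 and 5.17 CPM in null livers. The groups overlapped, and the log2 fold change was 0.72 (SE 0.47). *Nqo1*, a quinone reductase that NRF2 also induces, was at 9.91 to 10.5 CPM in WT and at 8.30, 11.3 and 6.69 CPM in null livers, spread on both sides of WT, with a log2 fold change of −0.21 (SE 0.21, 95% interval −0.62 to 0.19).

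By the cut-off of the study's methods, a fold of 1.2 or more with an adjusted p below 0.05, here from the quasi-likelihood test of edgeR adjusted by Benjamini-Hochberg, 5 of the 8 genes were called in liver. These were *Ahr*, *Arnt* and *Tiparp* higher and *Cyp1a1* and *Cyp1a2* lower. Of all genes tested in liver, 26.9% were called, 13.5% higher and 13.4% lower, and 46.6% had groups that did not overlap, as 6 of the 8 genes did. Because this contrast chose the genes, the counts describe them and no more. The 5 were also called without null liver 1, the library with muscle markers, where 23.8% of all genes were. Without WT liver 1 the count was 3, with *Ahr* and *Tiparp* no longer called, and calls over all genes went from 3856 to 2150. Without WT liver 2 or without WT liver 3 the count was 2, *Arnt* and *Cyp1a1*, in fits that called 2268 and 1641 of all genes. Without null liver 3 it was 4, since *Cyp1a2* was not called at a log2 fold change of −3.28, and *Tiparp* was then at 1.08. Of the marker lists, 0 of 10 pericentral, 0 of 7 periportal and 0 of 6 general hepatocyte markers were called in liver by edgeR, with 1 gene of each list at an unadjusted p under 0.05, and DESeq2 called 1, 1 and 0 of them. The pericentral list, whose cells hold most *Cyp1a2* in adult liver, summed to 2990 to 3982 CPM in WT and 2719 to 4154 CPM in null livers.

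Some markers of other cell types were also called in liver, where 26.9% of all genes were called. The counts were not tested against that share. Of the 6 stellate or fibroblast markers 1, *Reln* (log2 fold change 0.62), was called higher and 2, *Lrat* (−1.15) and *Pdgfrb* (−0.39), lower, and the list summed to 488 to 583 CPM in WT and 588 to 1505 CPM in null livers. The 1505 CPM was null liver 1, and null livers 2 and 3 were at 588 and 669 CPM. Of the 6 endothelial markers 2, *Pecam1* (0.52) and *Cdh5* (0.49), were called higher, with sums of 398 to 407 CPM in WT and 398 to 463 CPM in null livers. The Kupffer or macrophage list had 1 of 6 higher, *Adgre1* (0.54), and the neutrophil list 1 of 4 higher, *Mpo* (0.59). The erythroid list had 1 of 4 lower, *Klf1* (−0.88), and the alveolar type 2 list 1 of 3 lower, *Sftpa1* (−1.87). Called by edgeR were 0 of 4 cholangiocyte, 0 of 3 alveolar type 1, 0 of 2 club, 0 of 2 ciliated and 0 of 3 skeletal muscle markers, with 0, 1, 0, 0 and 3 at an unadjusted p under 0.05, and of these DESeq2 called 1, the alveolar type 1 marker *Hopx*. The part of these cell types in the levels of the AhR genes was not tested.

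**Figure D2:**
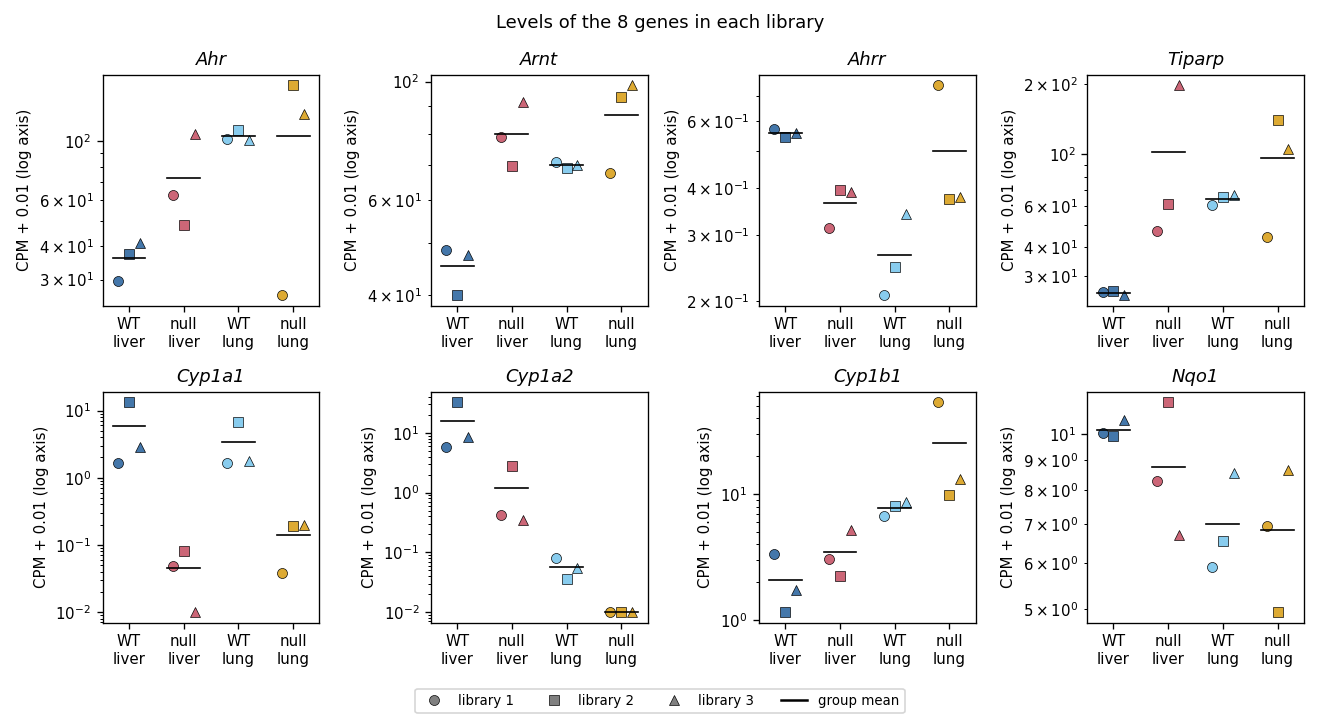
Level of each of the 8 genes in each library, in CPM with 0.01 added on a log axis, by group; symbols give the library number and lines the group mean. *Tiparp* spans 24.9 to 25.9 CPM in WT and 46.9 to 197 CPM in null livers, *Cyp1a1* is below 0.2 CPM in every null library of either tissue, and null lung 1 is the lowest lung for *Ahr* and the highest lung for *Cyp1b1*.

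Lung gives values that did not choose the genes, although the lungs may come from the same pups as the livers. *Cyp1a1* was low there too in null pups. It had 91, 254 and 79 reads in WT lungs (1.63, 6.69 and 1.74 CPM) and 1, 9 and 10 reads in null lungs (0.0284, 0.182 and 0.184 CPM). The groups did not overlap, and pooled reads were 21.2-fold higher in WT (95% exact interval 13.5 to 35.0, counting error only). The log2 fold change was −4.60 (SE 0.90), and the adjusted p of edgeR was 0.0697, just short of the threshold. DESeq2 gave −4.61 with adjusted p = 6.08e-06, and edgeR gave −4.17 with adjusted p = 0.00715 without null lung 1. Over all alternatives the log2 fold change lay between −4.93 and −3.61 and the adjusted p between 6.08e-06 and 0.318, so the direction held throughout and the call did not. *Cyp1a2* had 4, 1 and 2 reads in WT lungs and 0 in each null lung, too few to test, and a count of 0 allows up to 0.0553 to 0.0852 CPM per null lung.

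The other genes of the pathway were not called on the 6 lung libraries. *Ahr* was at 102, 110 and 101 CPM in WT lungs and at 26.2, 162 and 126 CPM in null lungs 1, 2 and 3. Null lung 1 lay far below WT and the other null lungs above it, so the log2 fold change was 0.00 (SE 0.59, adjusted p = 0.999, edgeR). Without null lung 1 it was 0.46 (SE 0.12, adjusted p = 0.0223), with a range of adjusted p over the alternatives from 0.0223 to 1.0. *Arnt* was at 70.8, 68.8 and 69.9 CPM in WT lungs and at 67.4, 93.7 and 98.4 CPM in null lungs. Its log2 fold change was 0.31 (SE 0.17, adjusted p = 0.294, edgeR), and 0.45 (SE 0.09, adjusted p = 0.00742) without null lung 1, where the alternatives reached up to adjusted p = 0.550. *Tiparp* was at 60.7, 65.3 and 66.7 CPM in WT lungs and at 44.2, 140 and 105 CPM in null lungs. Its log2 fold change was 0.58 (SE 0.39, adjusted p = 0.383, edgeR), and 0.92 (SE 0.13, adjusted p = 0.00213) without null lung 1, with adjusted p up to 0.732 over the alternatives. For all 3 genes, null lungs 2 and 3 lay above the 3 WT lungs and null lung 1 below them.

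*Ahrr* had 11, 9 and 15 reads in WT lungs (0.197, 0.237 and 0.331 CPM) and 26, 18 and 20 reads in null lungs (0.738, 0.364 and 0.369 CPM). The null group was wholly higher, the reverse of liver, but the log2 fold change of 0.93 (SE 0.45) had adjusted p = 0.254 (edgeR), and 0.52 with adjusted p = 0.327 without null lung 1. *Cyp1b1*, which fibroblasts and other mesenchymal cells express, was at 6.72, 8.03 and 8.60 CPM in WT lungs and at 53.8, 9.88 and 13.1 CPM in null lungs. The null group was wholly higher, null lung 1 by far. That library also held 3808 CPM of fibroblast markers, 4 of 6 above and 2 below every other lung. Their part in the value was not tested. The log2 fold change was 1.73 (SE 0.67, adjusted p = 0.185, edgeR), and without null lung 1 it was 0.56 (SE 0.19, adjusted p = 0.0546). *Nqo1* was at 5.90, 6.53 and 8.54 CPM in WT lungs and at 6.93, 4.93 and 8.65 CPM in null lungs. The groups overlapped throughout, and the log2 fold change was −0.03 (95% interval −0.59 to 0.54, adjusted p = 0.966, edgeR).

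On the 6 lung libraries edgeR thus called 0 of the 7 genes tested, with 2, *Cyp1a1* and *Cyp1b1*, at an unadjusted p under 0.05, and DESeq2 called 1 of 8, *Cyp1a1*. Of all genes tested in lung, 0.327% were called and 35.9% had groups that did not overlap, as *Ahrr*, *Cyp1a1* and *Cyp1b1* did among the 7 tested. Without null lung 1, edgeR called 4 of 7, *Ahr*, *Arnt* and *Tiparp* higher and *Cyp1a1* lower, where 37.0% of all genes were called, 18.0% higher and 19.0% lower. Leaving out any other single lung library left the count at 0, but each of those fits called 0 of all genes.

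Markers of many cell types were called in the same lung fit without null lung 1, in which 37.0% of all genes were called. The counts were not tested against that share. Neutrophil markers had 3 of 4 higher, *S100a8* (log2 fold change 0.88), *S100a9* (1.02) and *Mpo* (1.99), and summed to 170 to 265 CPM in WT lungs against 445 and 460 CPM in null lungs 2 and 3. Macrophage markers had 2 of 5 higher, skeletal muscle markers 2 of 4 higher and ciliated markers 2 of 4 higher, while alveolar type 1 markers had 2 of 4 lower, *Pdpn* (−1.25) and *Hopx* (−0.71). Endothelial markers had 2 of 6 higher and 1 lower, pericentral markers 4 of 10 higher and 1 lower, and fibroblast (6 tested), cholangiocyte (5) and club (4) markers 1 in each direction. Alveolar type 2 markers had 1 of 5 higher. Called by edgeR were 0 of 6 general hepatocyte, 0 of 6 periportal and 0 of 4 erythroid markers, with 0, 0 and 1 at an unadjusted p under 0.05. The part of these cell types in the lung values of the AhR genes was not tested.

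**Figure D3:**
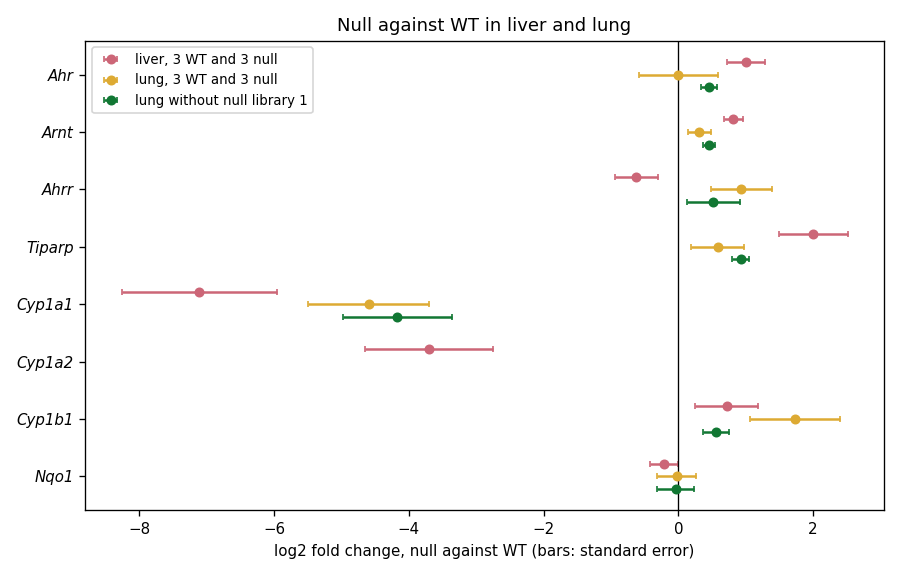
Log2 fold change of null against WT for each gene in liver, in lung and in lung without null library 1 (x axis); points are edgeR estimates and bars SEs. *Cyp1a1* lies at −7.11, −4.60 and −4.17, *Tiparp* is above 0 in all 3, and *Ahrr* is at −0.63 in liver and 0.93 in lung; *Cyp1a2* has no lung value.

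The pathway also differed between WT lung and WT liver. Per length, on the scale of CPM per kb of exon, the order in WT liver was *Cyp1a2* (7.81 ± 7.41, SD, n = 3), *Nqo1* (6.54 ± 0.216), *Ahr* (5.86 ± 0.964), *Tiparp* (5.85 ± 0.118), *Arnt* (5.66 ± 0.585), *Cyp1a1* (2.13 ± 2.31), *Cyp1b1* (0.358 ± 0.197) and *Ahrr* (0.0581 ± 0.00140). The first 5 were within one another's spread, apart from *Nqo1*, whose 3 libraries lay above those of *Tiparp* and *Arnt*. *Cyp1a1* overlapped *Cyp1a2* and, at 0.581 to 4.78, lay just between the ranges of *Cyp1b1*, which ended at 0.578, and *Ahr*, which began at 4.81. *Ahrr* stood below the rest. In WT lung, on the same scale, *Ahr* (16.9 ± 0.799) and *Tiparp* (14.7 ± 0.719) led, then *Arnt* (8.72 ± 0.121), *Nqo1* (4.50 ± 0.887), *Cyp1b1* (1.33 ± 0.165), *Cyp1a1* (1.2 ± 1.04), *Ahrr* (0.0270 ± 0.00727) and *Cyp1a2* (0.0235 ± 0.0114). *Ahr* and *Tiparp* did not overlap, while *Cyp1b1* and *Cyp1a1* did, as did *Ahrr* and *Cyp1a2*.

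The receptor, *Arnt*, *Tiparp* and *Cyp1b1* were higher in WT lung than in WT liver, and *Ahrr* and *Nqo1* lower, each without overlap. By edgeR's quasi-likelihood test the log2 differences of lung against liver were 1.51 for *Ahr* (adjusted p = 2.80e-06), 0.61 for *Arnt* (adjusted p = 0.000314), 1.32 for *Tiparp* (adjusted p = 3.98e-07) and 1.86 for *Cyp1b1* (adjusted p = 0.000545). They were −1.12 for *Ahrr* (adjusted p = 0.00971) and −0.55 for *Nqo1* (adjusted p = 0.0108). *Cyp1a2* was a liver gene here, with 1209 reads in WT livers against 7 in WT lungs. *Cyp1a1* was at like levels, 1.62 to 13.3 CPM in liver and 1.63 to 6.69 CPM in lung, and library 2 was the highest in both WT tissues. For the 2 *Cyp1a* genes the WT livers had taken part in the choice, so their log2 differences, −8.19 and −0.83, are descriptions. In all, 7 of the 8 genes were called between the tissues, where 77.0% of all genes were. With the number as a replicate block the count was 8, *Cyp1a1* being added at −0.64. *Ahrr* was not called by DESeq2 (−1.12, adjusted p = 0.0645), with a range over the alternatives from 0.00923 to 0.0645, and *Nqo1* was not called in 1 fit of all 12 libraries (−0.54, adjusted p = 0.0867), with a range from 0.00294 to 0.0867.

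**Figure D4:**
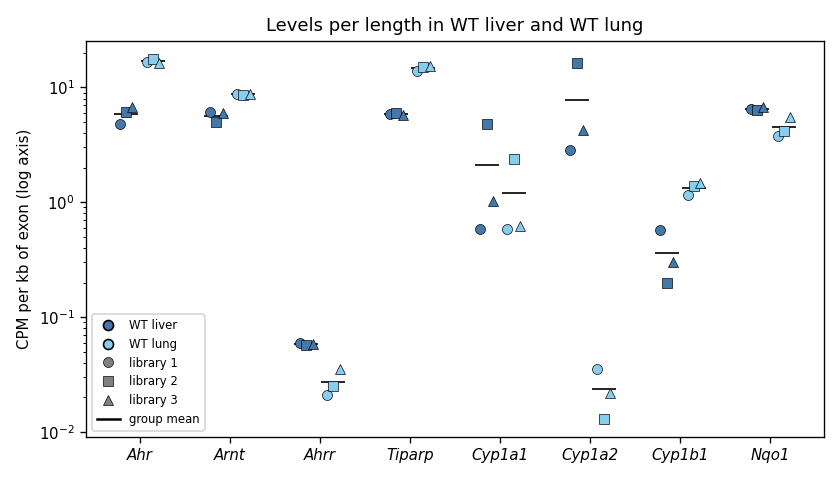
Level of each gene per length of exon in WT liver and WT lung, in CPM per kb on a log axis; symbols give the library number and lines the group mean. *Cyp1a2* is at 2.85 to 16.3 CPM per kb in liver and at most 0.0356 in lung, while the *Cyp1a1* libraries of the 2 tissues overlap.

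Genes around the pathway were counted in 8 lists, of which 28 of 96 genes tested in liver were called, close to the 26.9% of all genes. The cytosolic proteins that hold and carry the receptor, such as HSP90 and importins, had 0 of 10 higher and 1 lower. That gene was *Kpna2*, an importin alpha, at 119 to 128 CPM in WT and 84.7 to 89.9 CPM in null livers (log2 fold change −0.53). Relatives of ARNT and AhR and their coactivators had 5 of 11 higher and 0 lower, with a median log2 fold change of 0.42 against 0.02 over all genes. *Epas1*, which encodes HIF-2α, another partner of ARNT, was at 147 to 175 CPM in WT and 288 to 446 CPM in null livers (1.11), and *Npas3*, a neuronal family member, was at 0.246 to 0.330 and 0.559 to 1.28 CPM (1.47). Without null liver 1 the list had 4 of 11 higher and *Npas3* was not called.

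Other genes known to be induced through AhR had 5 of 18 higher and 2 lower in liver, with a median of 0.18. *Notum*, which inactivates Wnt proteins, was at 0.411 to 0.493 CPM in WT and 0.799 to 1.96 CPM in null livers (1.58), and *Cdkn1b*, the cell cycle inhibitor p27, at 30.4 to 34.9 and 48.2 to 64.3 CPM (0.82). *Nfe2l2*, which encodes NRF2, was at 50.6 to 65.1 CPM in WT and 25.0 to 43.7 CPM in null livers (−0.88), and *Cd36*, a fatty acid receptor, at 160 to 201 and 109 to 152 CPM (−0.51). 2 of the 5 higher genes, *Ugt1a6a* and *Ugt1a6b*, share exons with the other *Ugt1a* genes, so their reads could have been split. Targets of NRF2 had 5 of 19 higher and 3 lower. The small Maf genes *Maff* (2.74 to 5.12 CPM in WT and 7.69 to 24.7 CPM in null, 1.92) and *Mafk* (30.3 to 39.1 and 61.5 to 86.7 CPM, 1.11) were higher. *Hmox1*, the haem oxygenase (374 to 579 and 139 to 226 CPM, −1.48), and *Srxn1*, sulfiredoxin (29.7 to 41.6 and 17.8 to 21.4 CPM, −0.80), were lower.

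Enzymes that break tryptophan down towards AhR ligands had 1 of 9 higher and 1 lower, both kynurenine aminotransferases, *Ccbl1* at 35.7 to 45.2 CPM in WT and 56.3 to 66.4 CPM in null livers (0.58) and *Aadat* at 62.5 to 77.3 and 33.6 to 50.2 CPM (−0.85). The median of that list was −0.54. Without null liver 1 the list had 1 of 9 higher and 2 lower, with *Tdo2* added at −2.31, against −1.05 on all 6 livers. Electron partners of P450 enzymes had 0 of 8 called by edgeR, with 2 at an unadjusted p under 0.05, and 2 by DESeq2. Conjugating enzymes had 1 of 13 higher, *Gstt1* at 74.4 to 115 CPM in WT and 136 to 203 CPM in null livers (0.77), and 1 lower, *Nat2* at 8.79 to 9.45 and 4.51 to 5.92 CPM (−0.78). Other receptors of xenobiotics and bile acids had 1 of 8 higher, *Rxra* at 289 to 350 and 419 to 527 CPM (0.48), and 2 lower. These were *Nr1i3*, the constitutive androstane receptor, at 42.2 to 49.7 CPM in WT and 16.8 to 30.8 CPM in null livers (−0.91), and *Nr1h4*, the bile acid receptor FXR, at 64.9 to 78.2 and 38.1 to 44.3 CPM (−0.77).

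In lung, edgeR called 0 of the 90 genes tested in these lists on all 6 libraries, with 21 at an unadjusted p under 0.05, and DESeq2 called 10. Without null lung 1 it called 39 of 91. Relatives of ARNT and coactivators then had 7 of 11 higher and 1 lower, and NRF2 targets 8 of 19 higher and 1 lower. The cytosolic complex had 2 of 10 higher and 4 lower, other AhR-induced genes 4 of 21 higher and 3 lower, and the P450 partners 2 of 8 in each direction. Tryptophan enzymes had 2 of 8 higher and 1 lower, conjugating enzymes 1 of 8 higher and other receptors 1 of 6 higher. The shares are to be read against the 18.0% higher and 19.0% lower of all genes in that fit.

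**Figure D5:**
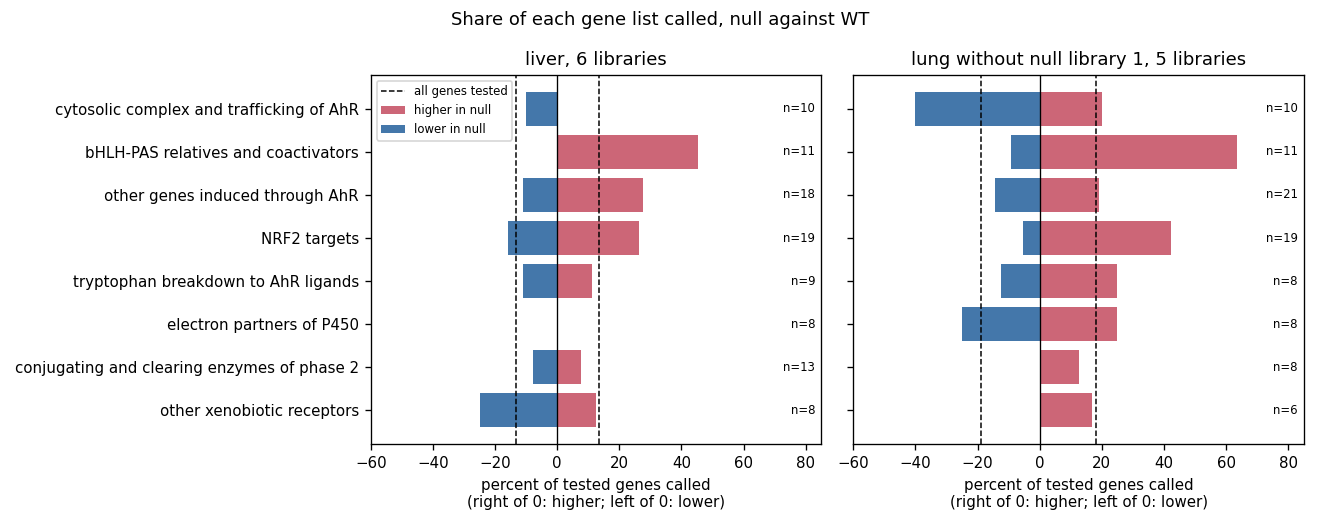
Percent of the tested genes of each list called higher (right of 0) and lower (left of 0) in null against WT, in liver and in lung without null library 1; dashed lines mark the percent of all genes called in each direction, and n is the number of genes tested. Relatives of ARNT with coactivators have 5 of 11 genes higher in liver and 7 of 11 in lung.

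Among 12026 genes that averaged 1 log2 CPM or more in liver, the nearest patterns to *Cyp1a1* over the 6 liver libraries were those of *Cyp1a2*, *Hdhd3* and *Dio1*. Likeness was the root mean square difference of centred log2(CPM + 0.5), at 0.59, 0.74 and 0.76. *Hdhd3* was at 18.6, 36.7 and 25.6 CPM in WT livers 1, 2 and 3 and at 0.792, 2.31 and 1.05 CPM in null livers, highest in WT liver 2 and lowest in WT liver 1, as for *Cyp1a1*. *Dio1*, a thyroid hormone deiodinase, was at 2.99, 6.52 and 4.07 CPM in WT and 0.603, 1.08 and 0.294 CPM in null livers, again highest in WT liver 2 and lowest in WT liver 1. The nearest to *Cyp1a2* were *Cyp1a1* (0.59), *Hdhd3* (0.67) and *Cyp4a14* (0.79), a fatty acid hydroxylase at 1025 to 1662 CPM in WT and 183 to 345 CPM in null livers. The nearest to *Ahr* were *Cfap69* (0.087), *Lilr4b* (0.11) and the amino acid transporter *Slc38a2* (0.12), which was at 155 to 177 CPM in WT and 286, 243 and 518 CPM in null livers 1, 2 and 3. With 6 libraries and this many candidates, near patterns describe these libraries only.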

How the data were processed

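Liver and lung RNA of 3 WT and 3 null newborn pups each was analysed, and samples were grouped by genotype, tissue and number in their titles. The authors deposited raw counts, that is whole read numbers for each gene symbol, in a separate table for each library and not normalized. The submitters' processing notes name FastQC, STAR 2.5.2a, DESeq2 and the build mm10, and the reads were pairs of 75 bp. The counting program, the annotation and the strand setting are not given in the sources used here. In 27 rows the gene name had become a date.

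The analysis used edgeR 4.0.16 in R 4.3.3 (filterByExpr, TMM factors, quasi-likelihood test, Benjamini-Hochberg adjustment over all genes tested), each comparison in a fit of its own 6 libraries. Standard errors (SE) were taken as the log2 fold change divided by the root of F, and 95% intervals are normal. DESeq2 1.42.0 and the other alternatives are given in the closing section. The study's methods name DESeq with the same cut-off of fold and adjusted p. Positions, exon lengths and overlaps come from GENCODE M21 on GRCm38, and start regions from RefSeq on GRCm38.p6. Depth was 26759463 to 42914295 counted reads, which sets the level of 3 reads given in the report. Intervals on pooled reads cover counting error only. The labels do not say that every library is a separate pup beyond its number, so p-values measure the spread between these libraries. The lowest chi-square per gene between libraries of a group was 15.4, so none was counted as a copy.

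Replicate numbers of WT liver and WT lung deviated together from their group means (correlations 0.263, 0.218 and 0.184). Those of null liver and null lung did so too (0.468, 0.366 and 0.422). Null liver 1 and null lung 1 both had high skeletal muscle markers, whose part in these correlations was not tested. The series design of 3 mice per genotype allows such pairs between tissues. The main fit of WT lung against WT liver left the pairing out, and the replicate block was run as an alternative. Members and lists were chosen with earlier results of these data known. Named were all 8 members, *Man1a2*, at most 2 largest rises and 2 largest falls among called genes of each list, and the 3 nearest patterns to *Cyp1a1*, *Cyp1a2* and *Ahr*. The *Ugt1a6* genes, as shared exons make them uncertain, *Tdo2* and the called cell type markers were named after their values were seen.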

Additional observations from a re-analysis of the deposited data

Results flagged for a closer look

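*Ahrr* was the one gene of the 8 whose null libraries were wholly lower than WT in liver and wholly higher in lung. Its log2 fold change of null against WT was −0.63 in liver and 0.93 in lung, on 8 to 26 reads per library. The difference between the tissues was not tested, and neither value was called on its own. Without null lung 1 the lung value was 0.52, and 0.364 to 0.369 CPM in null lungs 2 and 3 remained above 0.197 to 0.331 CPM in WT lungs.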

How the results depend on the processing

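The count of called genes in liver was 5, and 4 or 5 under the other tests and scalings. It was 3 with a minimum of 10 counts in every library, which removes *Ahrr*, *Cyp1a1* and *Cyp1a2* from the test, and 2 to 5 when each library was left out. In lung it was 0, but 1 with DESeq2 and 1 with all 12 libraries in 1 fit, both *Cyp1a1*. It was 0 to 4 when each library was left out, with 4 only without null lung 1, where the other such fits called 0 of all genes. Between WT tissues it was 7, and 5 to 8 under the alternatives. The 28 pathway genes called in liver were 11 with all 12 libraries in 1 fit and 15 to 31 when each library was left out, with 15 without WT liver 3. The 0 called in lung were 10 with DESeq2, 12 with all 12 libraries in 1 fit and 0 to 39 when each library was left out. These alternatives for the lists were chosen after seeing the data. Upper-quartile factors moved the median of all liver genes from 0.02 to −0.09 and the share of calls that were higher from 50.1% to 35%, and *Ahr* was then not called. In lung, 27.5% of 51 calls were higher, against 48.4% of 2355 with DESeq2, 45.7% of 2284 with all 12 libraries in 1 fit, and 0 of 2 with DESeq2 size factors in edgeR. The lung value of *Ahr*, 0.00, turned to −0.070 with upper-quartile factors and −0.0033 with a minimum of 1 count, and ranged from −0.44 to 0.46 when each library was left out. That of *Nqo1* ranged from −0.24 to 0.17 when each library was left out. Of 315 values of single genes under an alternative, 294 were on the same side of the test or, where no test was used, within the spread between replicates. This count includes liver values that lost their call and lung values from fits that called 0 of all genes. It therefore does not measure how well the calls held.

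Correlations of deviations between WT and null libraries of one number had both signs. They were −0.024, −0.002 and 0.143 in liver and −0.043, −0.039 and 0.099 in lung, and no threshold was set for them. With the replicate block the counts of called genes were 5 in liver, 0 in lung and 8 between WT tissues, those of the pathway lists 29 and 0, and the lung value of *Ahr* was −0.32. Depth limits the precision of the lowest counts, at most 10 reads of *Cyp1a1* in null libraries, at most 4 of *Cyp1a2* in lung and 8 to 26 of *Ahrr*.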

Other observations

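Library 2 held the most *Cyp1a1* in both WT tissues, 13.3 CPM in liver and 6.69 CPM in lung, against 1.62 to 2.84 CPM and 1.63 to 1.74 CPM in WT libraries 1 and 3. In null pups the most *Tiparp* was in liver 3 (197 CPM) and in lung 2 (140 CPM), which carry different numbers. Per length, *Cyp1a2* was 15.2 and 54.7 times *Cyp1a1* in null livers 1 and 2, on 1 and 2 *Cyp1a1* reads, and null liver 3 had no *Cyp1a1* read.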
